A study of Mus musculus with 11 samples.

Results

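The genes by which inhibitory neurons of the forebrain are usually recognised and told apart are Gad1, Gad2, Slc32a1, Lhx6, Adarb2, Pvalb, Sst, Vip and Lamp5. They were taken by symbol from a table of 25938 genes in 110304 brain nuclei, and all 9 were present. Unique molecular identifiers (UMIs, each standing for a captured RNA molecule) of these genes were counted per nucleus and summed per library in the authors' neuronal clusters 0, 1, 2, 5 and 9, which hold 76428 nuclei. The 11 libraries come from as many mice that carry, by their labels, the human transferrin receptor (TfR) as a homozygous knock-in, and that were dosed intravenously 4 times at weekly intervals and sampled 72 h after the last dose. OTV:Malat1 joins an antisense oligonucleotide (ASO) against the nuclear RNA Malat1 to a TfR-binding molecule (60 mg/kg, n = 3), and nonTV:Malat1 joins it to a molecule that does not bind the TfR (60 mg/kg, n = 3). Malat1 ASO is the unconjugated oligonucleotide (2.5 mg/kg, n = 2), and ATV:BACE1, the control, binds the TfR and carries no ASO (57 mg/kg, n = 3). In each group replicate 1 was a female of 2.33 months, replicate 4 a male of 2.57 months and replicate 5 a male of 2.33 months, and replicate 4 of Malat1 ASO was not analysed here. The labels place the tissue in the posterior brain, while the deposited metadata give cortex and the strain C57BL/6J, and this was not resolved.

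Inhibitory neurons release GABA. Gad1 and Gad2 encode the decarboxylases that make GABA from glutamate, and Slc32a1 encodes the transporter that loads it into vesicles, so these 3 genes mark inhibitory neurons of most kinds, including the projection neurons of the striatum. Cortical interneurons born in the medial ganglionic eminence keep the LIM-homeodomain factor Lhx6, and among them are the kinds named for the calcium buffer parvalbumin (Pvalb) and the neuropeptide somatostatin (Sst). Those born in the caudal eminence commonly carry Adarb2, a relative of the RNA-editing enzymes, and among them are the kinds named for the neuropeptide Vip and the membrane protein Lamp5. Malat1, the target of the oligonucleotides, is a long non-coding RNA that stays in the nucleus.

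Library totals ran from 33235994 to 43972886 UMIs, with 7546 to 13840 nuclei per library and a median of 2205 to 3666 UMIs per nucleus, the lowest in OTV:Malat1 replicate 5. Called doublets, 10.4% of nuclei, were kept. Of 108788 barcode sequences, 1495 occurred in more than 1 library. Each deposited batch holds the libraries of 1 replicate number, so that sex, age and batch cannot be told apart. The labels do not say whether dissections or captures were shared, and p-values measure the spread between these 11 libraries.

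In mouse genome build GRCm38, Gad1 lies on chromosome 2 from 70553072 to 70602014, Gad2 on chromosome 2 from 22622205 to 22693874 and Slc32a1 on chromosome 2 from 158610767 to 158615748. Lhx6 (36081953 to 36105408) and Lamp5 (136052239 to 136069917) lie on chromosome 2 as well, so that 5 of the 9 genes share it. Adarb2 spans 565.9 kb on chromosome 13, from 8202866 to 8768747. Pvalb is on chromosome 15 (78191114 to 78206400), Sst on chromosome 16 (23889573 to 23890958) and Vip on chromosome 10 (5639218 to 5647617). The 9 are annotated as protein-coding, and Malat1, on chromosome 19 from 5795690 to 5802672, as a long intergenic non-coding RNA.

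GABA synthesis genes were high in clusters 1, 2 and 9 and low in cluster 0. Gad1 stood at 115 ± 9.03 CPM (UMIs per 1000000 UMIs of the same nuclei) in cluster 1 of the control libraries, 98.3 ± 13.0 in cluster 2 and 109 ± 18.8 in cluster 9, against 20.2 ± 1.59 in cluster 0 and 42.0 ± 2.40 in cluster 5 (SD, n = 3 each). These 3 high clusters did not differ beyond their spread. Gad2 gave the same order at the low end, with 151 ± 6.32 CPM in cluster 1, 123 ± 11.8 in cluster 2, 118 ± 5.86 in cluster 9, 46.5 ± 4.93 in cluster 5 and 24.9 ± 2.56 in cluster 0 (SD, n = 3 each). In the glial clusters 3 and 4 Gad1 stood at 40.8 ± 4.23 and 33.0 ± 5.54 CPM, and Gad2 at 40.6 ± 2.65 and 33.7 ± 5.72 (SD, n = 3 each). In CPM cluster 5 was thus near the glial level in both genes, and cluster 0 was below it. Glial nuclei are shallower, however. Per 100 nuclei Gad1 had 10.5 UMIs in cluster 0 and 17.2 in cluster 5, against 3.75 and 4.80 in clusters 3 and 4. Gad2 had 12.6 and 16.7, against 4.56 and 4.85. Across the 11 libraries Gad1 in cluster 1 (89.0 to 143 CPM) and in cluster 2 (82.6 to 130 CPM) stayed above its range in cluster 0 (15.7 to 27.9 CPM). The authors drew the clusters from the same nuclei and genes, so these levels describe the clusters and are not a test.

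Slc32a1 was sparser and separated the clusters less. Its control level was 22.4 ± 7.36 CPM in cluster 1, 20.9 ± 5.38 in cluster 9, 19.1 ± 4.24 in cluster 2, 10.9 ± 0.802 in cluster 5 and 7.28 ± 0.923 in cluster 0 (SD, n = 3 each). In cluster 3, which is led by oligodendrocyte genes, it stood at 26.7 ± 2.17 CPM (SD, n = 3), no lower than in any neuronal cluster. RNA free in the suspension can give UMIs in any nucleus, and a cell type that should lack a gene shows how many. The glial clusters 3 and 4 (median 1092 UMIs per nucleus) had a UMI of Slc32a1 in 2.90% of nuclei, against 5.96% in the neuronal clusters (median 3903 UMIs).

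**Figure D1:**
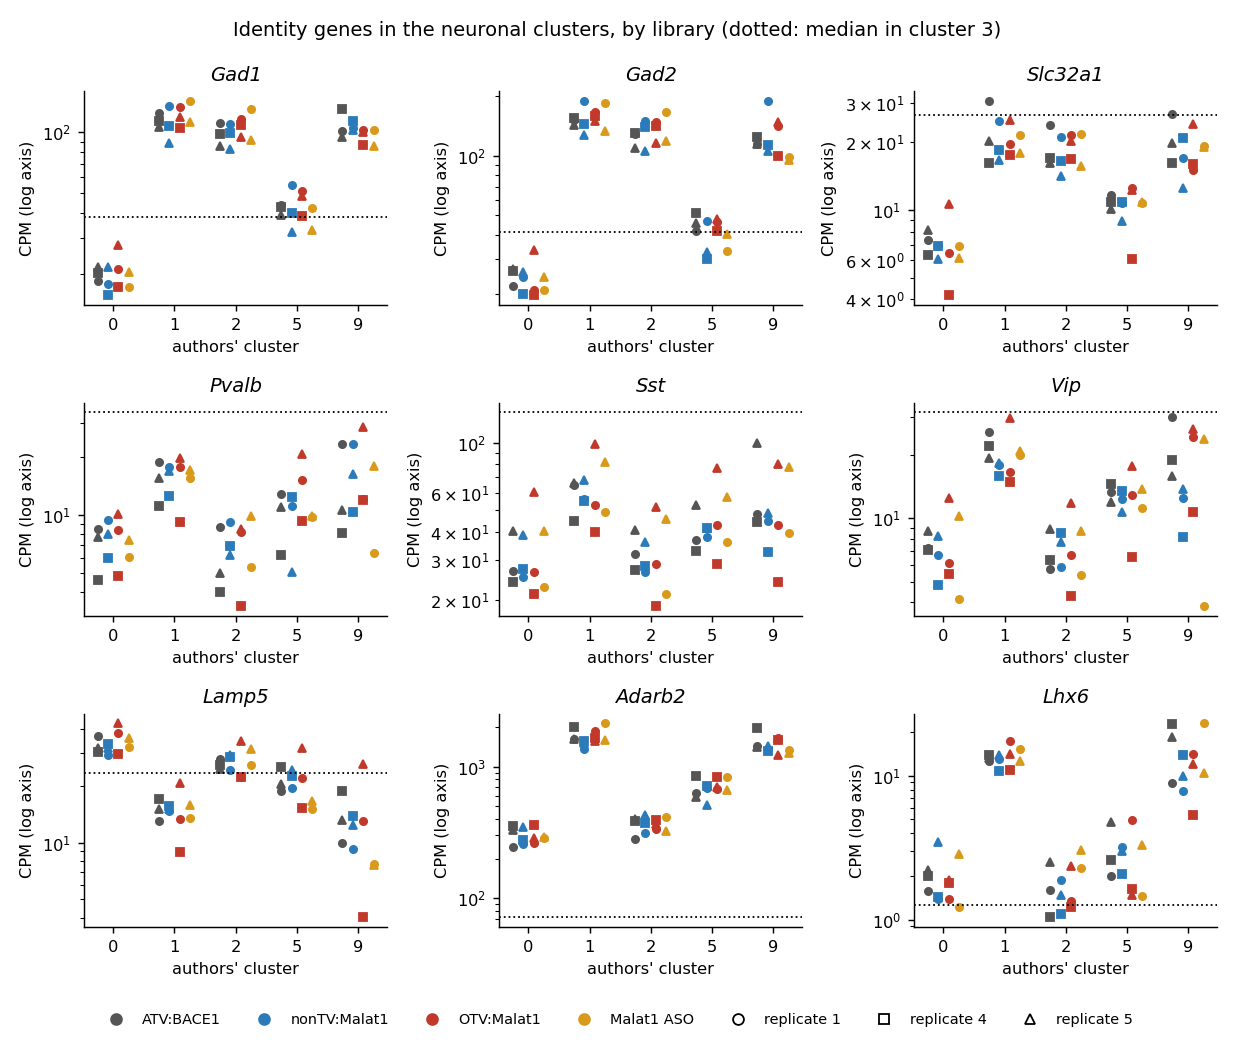
Level of each identity gene in the 5 neuronal clusters, in CPM on a log axis, with 1 point per library, coloured by group and shaped by replicate; the dotted line is the median of the 11 libraries in glial cluster 3. Gad1 and Gad2 are high in clusters 1, 2 and 9, Lhx6 in clusters 1 and 9, and Pvalb, Sst and Vip lie under the dotted line in all 11 libraries and 5 clusters.

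Lhx6 and Adarb2 were both highest in clusters 1 and 9. Lhx6 was at 13.2 ± 0.606 CPM in cluster 1 and 16.8 ± 7.15 in cluster 9 of the control libraries, but at 1.72 ± 0.739 in cluster 2, 1.93 ± 0.329 in cluster 0 and 3.13 ± 1.47 in cluster 5 (SD, n = 3 each). Cluster 2, rich in Gad1 and Gad2, was thus no richer in Lhx6 than glial cluster 3, at 1.81 ± 0.577 CPM (SD, n = 3). Adarb2 was at 1745 ± 205 CPM in cluster 1 and 1602 ± 309 in cluster 9, then 692 ± 141 in cluster 5, 355 ± 62.9 in cluster 2 and 310 ± 58.6 in cluster 0 (SD, n = 3 each). It was at 73.6 ± 20.8 CPM in glial cluster 3 and 25.5 ± 5.19 in glial cluster 4, but at 720 ± 153 in cluster 7, which is not among the neuronal clusters (SD, n = 3 each).

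These 2 genes divide the marked nuclei below, and the stretch around their start sites is shown for that reason, from 250 bases before to 50 after the start in the RefSeq promoter table for GRCm38.p6. RefSeq gives Adarb2 1 window, on the plus strand at chr13:8202616-8202915, and Lhx6 3, of which the outermost is on the minus strand at chr2:36105359-36105658. Capitals mark TAATTA, a core sequence that many homeodomain factors bind, which reads the same on both strands.
Adarb2: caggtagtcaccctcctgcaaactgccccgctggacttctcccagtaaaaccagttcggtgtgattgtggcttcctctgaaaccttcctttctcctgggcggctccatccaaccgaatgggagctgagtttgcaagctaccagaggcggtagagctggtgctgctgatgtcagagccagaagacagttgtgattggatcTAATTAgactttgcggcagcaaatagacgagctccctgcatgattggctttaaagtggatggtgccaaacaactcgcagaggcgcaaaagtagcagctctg
Lhx6: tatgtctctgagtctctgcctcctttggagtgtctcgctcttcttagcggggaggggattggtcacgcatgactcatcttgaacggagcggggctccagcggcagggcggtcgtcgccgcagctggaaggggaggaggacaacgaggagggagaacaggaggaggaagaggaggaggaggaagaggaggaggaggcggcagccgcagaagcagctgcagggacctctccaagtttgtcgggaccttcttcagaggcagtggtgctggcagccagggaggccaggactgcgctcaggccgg
TAATTA occurred in 1 of the 13 windows of the 9 genes, that of Adarb2, and in 5.29% of all 32851 windows of the table. A match is a run of letters and no evidence of binding.

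The genes that name the kinds were close to the glial background. Sst had a UMI in 16.0% of neuronal and 13.9% of glial nuclei, Pvalb in 4.21% and 3.20%, and Vip in 3.98% and 3.12%, at the median depths given above. Thinned to 1000 UMIs the neuronal shares were the lower ones, with 4.99% against 9.43% for Sst, 1.15% against 2.25% for Pvalb and 1.36% against 2.25% for Vip. In CPM, Sst was higher in glial cluster 3 (144 ± 36.7) than in cluster 1 (58.8 ± 12.05, SD, n = 3 each). A single UMI of these 3 genes in a nucleus is therefore weak evidence of a kind. Lamp5 had a UMI in 10.3% of neuronal and 2.19% of glial nuclei, or 2.55% and 1.60% thinned to 1000 UMIs, and in CPM glial cluster 3 (22.4 ± 4.63) lay above clusters 1, 5 and 9. It was highest in cluster 0 (33.2 ± 3.50 CPM) and lowest in cluster 9 (14.0 ± 4.46, SD, n = 3 each). It was the 1 gene of the 9 whose highest neuronal cluster was the one lowest in Gad1.

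A neuronal nucleus was counted as inhibitory-marked when it held at least 2 UMIs of Gad1, Gad2 and Slc32a1 together. By this rule 13629 of the 76428 neuronal nuclei were marked (17.8%), against 0.74% of the shallower nuclei in glial clusters 3 and 4. Thinned to 1000 UMIs, where 1 UMI of the 3 genes was asked for, the shares were 14.9% of neuronal and 8.46% of glial nuclei, a much narrower contrast. Only 14225 of the 24838 glial nuclei were deep enough to be thinned. Cluster 1 gave 5753 of the marked nuclei (42.2%) and cluster 2 gave 5335 (39.1%). Marked nuclei were 36.0% of cluster 2, 27.5% of cluster 9, 25.8% of cluster 1, 7.48% of cluster 5 and 4.94% of cluster 0. By this rule no neuronal cluster was made up mostly of marked nuclei, but the rule leaves out nuclei with 1 such UMI. In cluster 2, 5027 of 14814 nuclei held 0 such UMIs and 4452 held 1, against 26022 and 3815 of 31389 in cluster 0. Just inside the rule stood 6632 nuclei with 2 such UMIs, and just outside 14860 with 1. Marking favours deeper nuclei: the median was 5083 UMIs in marked and 3664 in other neuronal nuclei. Called doublets were 4.83% of marked nuclei in cluster 1, 24.7% in cluster 2, 42.7% in cluster 0, 48.4% in cluster 9 and 70.5% in cluster 5, and their part in the results was not tested beyond leaving them out.

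**Figure D2:**
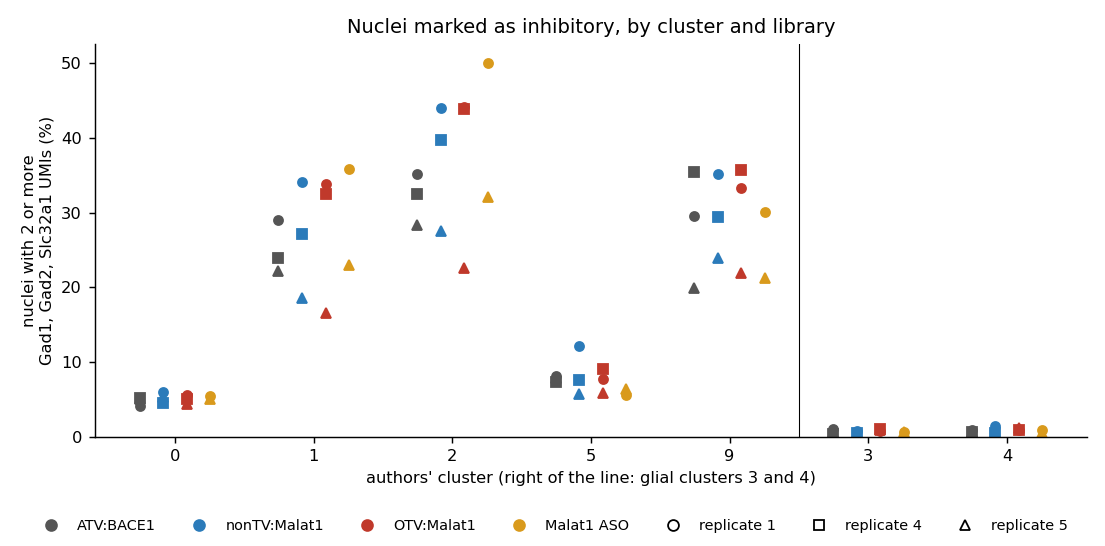
Share of nuclei that are inhibitory-marked in each neuronal cluster and, right of the line, in glial clusters 3 and 4, in percent, with 1 point per library. Clusters 1, 2 and 9 hold the high shares, and OTV:Malat1 replicate 5, the shallowest library, is low in clusters 1 and 2.

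Marked nuclei of clusters 1 and 2 carried different companions. The 6 inhibitory markers, among them Gad1, Gad2, the non-coding RNA Dlx6os1 and the receptor gene Erbb4, summed to a median of 4606 CPM over libraries in marked nuclei of cluster 1 and 1384 in those of cluster 2. Erbb4 made up most of that gap, at 3448 and 706 CPM. The 6 striatal projection neuron markers summed to 871 CPM in marked nuclei of cluster 2 and 85.7 in those of cluster 1. Among them, Rgs9 was at 562 and 41.5 CPM, the dopamine receptor gene Drd2 at 131 and 12.2, and the adenosine receptor gene Adora2a at 65.2 and 3.48. The other nuclei of cluster 2 were as high in them, with Rgs9 at 596 and Drd2 at 130 CPM. Neither the labelled region nor the tissue in the metadata names the striatum, and cluster 2 is given no cell type name.

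The unmarked nuclei of cluster 1 were led by other genes. The 6 thalamic or midbrain markers summed to a median of 439 CPM there and to 83.7 in its marked nuclei. Tcf7l2 and Lef1, transcription factors of Wnt signalling, were at 226 and 160 CPM in unmarked and 39.1 and 22.4 CPM in marked nuclei. Slc17a6, a vesicular glutamate transporter gene, was at 87.6 and 14.8 CPM. Gad1 itself was at 35.0 CPM in the unmarked nuclei, which the rule for marking keeps low. Cluster 1 thus mixed nuclei high in GABA genes with nuclei high in glutamatergic and thalamic ones.

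Of the other identity genes, which the marking did not use, Lhx6 was the most enriched in marked nuclei. It had a UMI in 5.06% of marked and 1.32% of other neuronal nuclei, and in 7.70% of marked nuclei in cluster 1, 8.87% in cluster 9 and 1.42% in cluster 2. In nuclei thinned to 1000 UMIs, so that depth no longer differs, the shares were 0.99% and 0.36%. Adarb2 was found in 47.2% and 33.4% (29.8% and 20.8% thinned), and Pvalb in 6.53% and 3.71% (1.36% and 1.10% thinned). Sst (19.1% and 15.3%), Vip (4.70% and 3.82%) and Lamp5 (11.9% and 9.89%) differed less, and thinned to 1000 UMIs they were at 4.92% and 5.01%, 1.42% and 1.35%, and 2.54% and 2.55%. A single UMI of these 3 genes was thus about as frequent in marked as in other nuclei at equal depth. At 4 or more UMIs, unthinned, Sst was in 0.594% of marked and 0.124% of other nuclei, Vip in 0.396% and 0.0860%, and Lamp5 in 0.132% and 0.0908%.

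Adarb2 was not confined to marked nuclei. In cluster 1 it had a UMI in 47.5% of marked and 44.1% of unmarked nuclei, with a range of 1704 to 2561 CPM over libraries in the first and 1089 to 1825 CPM in the second. The genes whose presence went most with a UMI of Adarb2 across neuronal nuclei were Lef1, with a mean log2 ratio of 2.82 ± 0.19 between nuclei with and without Adarb2, Abhd12b (2.24), Synpo2 (2.11), Plekhg1 (2.09) and Prkcd (1.92). This ratio was taken per library on CPM + 5 and averaged over 11 libraries (SD over libraries), and each of the 5 genes was above 0 in 11 of 11. Lef1 and Prkcd belong to the thalamic or midbrain markers. A UMI of Adarb2 on its own therefore did not single out inhibitory nuclei.

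By the same measure Gad1 went with Dlx6os1 (1.61 ± 0.29), the potassium channel subunit gene Kcnmb2 (1.56 ± 0.13), Erbb4 (1.503 ± 0.13), 6330411D24Rik (1.46 ± 0.14) and the potassium channel gene Kcns3 (1.37 ± 0.18), among 7311 genes ranked (SD, n = 11 libraries). Gad2 shared 3 of these, Dlx6os1 (1.61), Kcnmb2 (1.42) and Erbb4 (1.25), and added Pde11a (1.39) and Gm14204 (1.23). The list of Slc32a1 was 6330411D24Rik (0.95), Kcnmb2 (0.90), Eya4 (0.77), Sh3rf2 (0.74) and Kcns3 (0.73). The 3 GABA genes went together as well: Gad2 was at a ratio of 1.29 ± 0.19 with Gad1 and Slc32a1 at 0.68 ± 0.15 (SD, n = 11 libraries). Malat1 was at -0.00 ± 0.05 with Gad1, a mean over dosed and control libraries that was above 0 in 4 of 11.

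The lists of the kind and lineage genes overlapped in part with these and with each other. Lhx6 led with Sox6 (2.28 ± 0.27), a transcription factor of the same interneurons, then Eya4 (2.26), Moxd1 (2.25), 6330411D24Rik (2.16) and Nos1 (2.13), the neuronal nitric oxide synthase gene. Sst went with Nos1 (1.11 ± 0.30), Tacr1 (0.83), Sox6 (0.72), Gm38505 (0.67) and Grin3a (0.66), so that Sox6 and Nos1 stood on both lists. Pvalb went with 6330411D24Rik (1.91 ± 0.21), Eya4 (1.67), Kcnmb2 (1.57), Pde5a (1.46) and 4930447N08Rik (1.44). Vip went with the growth factor gene Igf1 (2.00 ± 0.34), Egfr (1.76), Gm5087 (1.40), Synpr (1.27) and Pde5a (1.09), and Lamp5 with Pdzrn3 (1.02 ± 0.20), Stard8 (0.97), Tafa1 (0.96), Gm48530 (0.93) and Gm26911 (0.83). Lamp5 ran against Gad1 (-0.28), Slc32a1 (-0.26) and Adarb2 (-0.47), each above 0 in 0 of 11 libraries, and Gad2 (-0.14, above 0 in 2 of 11). Across neuronal nuclei a UMI of Lamp5 thus did not single out inhibitory nuclei.

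Within marked nuclei Lhx6 and Adarb2 paired with the kind genes of their own lineage. Lhx6 and Sst shared 218 nuclei where independent occurrence over all marked nuclei gives 131.78, a ratio of 1.65 that was above 1 in 11 of 11 libraries. Lhx6 and Pvalb had a ratio of 1.82, above 1 in 9 of 11. Vip and Adarb2 had 1.32 and Lamp5 and Adarb2 had 1.24, each above 1 in 11 of 11. Several pairs across the lineages ran the other way, with 0.76 for Pvalb and Adarb2 (above 1 in 0 of 11 libraries), 0.91 for Sst and Adarb2 (1 of 11), 0.78 for Lhx6 and Adarb2 (2 of 11) and 0.69 for Lamp5 and Lhx6 (1 of 11). Vip and Lhx6 (0.86, 5 of 11), Sst and Lamp5 (0.96, 4 of 11) and Vip and Lamp5, of 1 lineage (0.96, 4 of 11), were not clearly on either side of 1. Pvalb and Sst, which name separate kinds, had 1.16, above 1 in 7 of 11, and 1.82 at 2 UMIs of each, from 8 nuclei. Pvalb and Vip had 0.91 (3 of 11), Pvalb and Lamp5 0.72 (2 of 11) and Sst and Vip 0.86 (2 of 11). Deeper nuclei hold more UMIs of every gene, so depth moves with each of these ratios, and its part was not tested. Asking for 2 UMIs of each gene widened the contrast: 133 of 147 Vip nuclei (90.5%) then also held Adarb2, a ratio of 2.42, and Sst with Adarb2 dropped to 0.60, under 1 in each library.

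**Figure D3:**
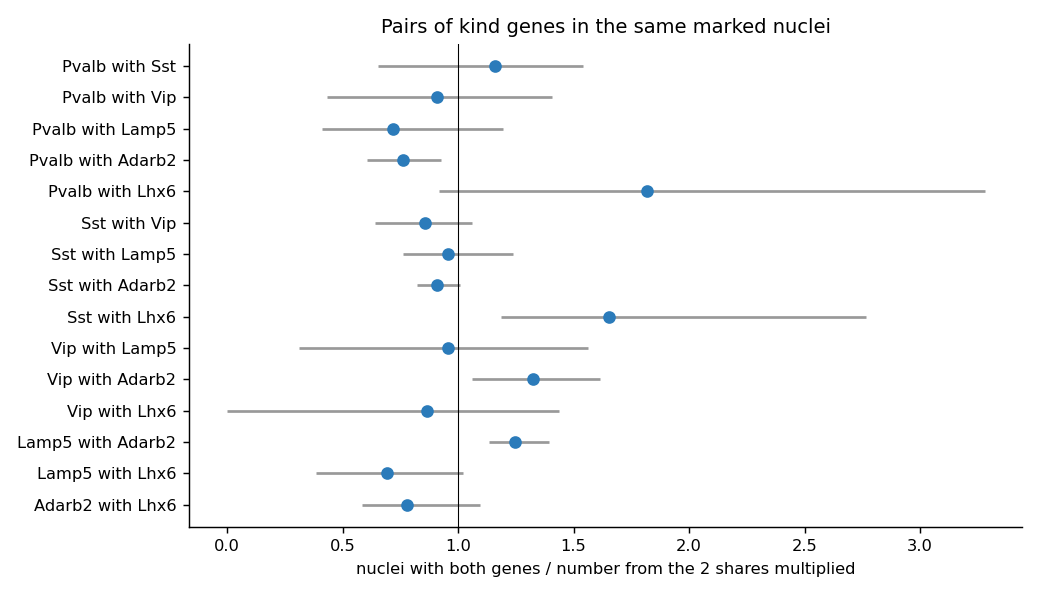
Co-occurrence of identity genes in marked nuclei, as observed over independent nuclei per pair, with the point for all libraries and the line for the range over the 11 libraries; 1 is independence. Pairs of Lhx6 with Pvalb or Sst and of Adarb2 with Vip or Lamp5 lie above 1, and Adarb2 with Pvalb, Sst or Lhx6 lies below it.

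Kinds were formed from marked nuclei with at least 1 UMI of a kind gene and none of the other 3 kind genes. This gave 2039 Sst, 1207 Lamp5, 604 Pvalb and 446 Vip nuclei, many of which can rest on background UMIs. With at least 2 UMIs of the kind gene, and more than of the other 3 together, 499, 287, 105 and 139 nuclei were left. Of these, Lhx6 had a UMI in 17.03% of Sst and 12.4% of Pvalb nuclei, against 3.83% of Lamp5 and 1.44% of Vip nuclei. At least 8 UMIs of Adarb2 were held by 87.8% of Vip and 48.1% of Lamp5 nuclei, against 8.82% of Sst and 7.62% of Pvalb nuclei. Cluster 1 held 65.7% of the Pvalb, 63.3% of the Vip and 56.7% of the Sst nuclei, but 31.0% of the Lamp5 nuclei. Of the Lamp5 nuclei cluster 2 held 36.9% and cluster 0, the lowest in Gad1, held 26.5%. By lineage gene, 445 marked nuclei had more UMIs of Lhx6 than of Adarb2 (Lhx6-side, 68.8% of them in cluster 1) and 6371 more of Adarb2 (Adarb2-side).

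The share of marked nuclei was compared between groups, to see whether dosing went with fewer or more recognisable inhibitory nuclei. It was 18.3%, 16.3% and 14.5% in replicates 1, 4 and 5 of ATV:BACE1, 25.6%, 18.8% and 13.6% in nonTV:Malat1, 22.2%, 22.6% and 11.8% in OTV:Malat1, and 24.8% and 15.6% in Malat1 ASO replicates 1 and 5. The groups overlapped, and replicate 5 was the lowest of each group. Group means were 16.4% ± 1.88, 19.3% ± 6.05 and 18.9% ± 6.15 (SD, n = 3 each) and 20.2% ± 6.53 (SD, n = 2). OTV:Malat1 minus ATV:BACE1 was 2.47 percentage points, with an exact two-sided permutation p of 0.6 (1.0 adjusted over 5 contrasts), and the other 4 contrasts had exact permutation p from 0.5 to 1.0. These permutations did not keep the pairing by replicate number. By that number, OTV:Malat1 lay above ATV:BACE1 in replicates 1 and 4 and below it in replicate 5. Marked again from nuclei thinned to 1000 UMIs with at least 1 such UMI, the means came to 14.4% ± 0.893 in ATV:BACE1 and 15.3% ± 0.336 in OTV:Malat1 (SD, n = 3 each). Part of these shares can be background, but the glial share of 8.46% does not measure it. Glial nuclei are shallower before thinning. Neuronal cluster 0, thinned alike, had Gad1 in 1.87%, Gad2 in 2.07% and Slc32a1 in 0.786% of nuclei. Fewer inhibitory cells and less GABA gene RNA per cell cannot be told apart in such shares.

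No change of the 9 genes with dosing was called by the test over all genes. In edgeR 0 of 225 tests (9 genes, 5 clusters, 5 contrasts between groups) passed an adjusted p of 0.05, with 0 under an unadjusted 0.05, and DESeq2 gave 0 and 0. A fit with the replicate number as a block called 0, with 14 under an unadjusted 0.05. The share of all genes under 0.05 in the blocked fits is not set beside this count or those below. These counts are therefore not read as changes. The background of calls was as low: percent called over all genes was 0 in clusters 0, 1 and 2, and 0.00705 and 0.00925 in clusters 5 and 9 for OTV:Malat1 against ATV:BACE1, 1 gene each. The edgeR fit did not call Malat1 itself in clusters 0, 1 and 2 (-0.81, -0.71 and -0.39, adjusted p 1.00 each, unadjusted p 8.46e-05, 9.52e-05 and 0.0453), so its count of 0 there does not show that the 9 genes kept their level. DESeq2 and the block called Malat1 in clusters 0 (adjusted p 4.04e-08 and 0.00122) and 1 (4.24e-07 and 0.0148) but not in cluster 2 (1.00 and 0.233). In cluster 1 the log2 differences between OTV:Malat1 and ATV:BACE1 were 0.02 (SE 0.16) for Gad1, 0.05 (SE 0.16) for Gad2, -0.14 (SE 0.21) for Slc32a1, 0.07 (SE 0.18) for Lhx6 and -0.08 (SE 0.16) for Adarb2. Gad1 in that cluster was at 124, 114 and 106 CPM in replicates 1, 4 and 5 of ATV:BACE1 and at 134, 106 and 119 CPM in OTV:Malat1, so the groups overlapped. In the marked nuclei 0 of 30 tests of the 6 genes not used for marking were called, with 0 under an unadjusted 0.05. DESeq2 gave 0 and 0, and the block 0 and 2.

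Genes around them were likewise uncalled between OTV:Malat1 and ATV:BACE1 in marked nuclei, where percent called was 0 over 16806 genes. Of the 7 genes for GABA synthesis, transport and breakdown, 0 rose and 0 fell, but Gad1, Gad2 and Slc32a1 are among them and their level in these nuclei is set by the marking. Abat, which breaks GABA down, differed by 0.09 (SE 0.19). Of 15 interneuron transcription factors 0 rose and 0 fell (median log2 difference -0.01, against 0.00 over all genes tested), with Sox6 at -0.00 (SE 0.14), Maf at 0.07 (SE 0.16) and Satb1 at -0.01 (SE 0.10). Of 24 further kind markers 23 were tested, and 0 rose and 0 fell (median 0.06), with Erbb4 at 0.03 (SE 0.14) and the secreted protein gene Reln at 0.12 (SE 0.25). DESeq2 and the blocked fit called 0 as well in these lists and nuclei, with 0 and 5 genes under an unadjusted 0.05.

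Malat1 was lower in the marked nuclei of OTV:Malat1. In replicates 1, 4 and 5 of ATV:BACE1 it took 7.08%, 7.06% and 7.96% of their UMIs, against 5.15%, 4.34% and 5.16% in OTV:Malat1. It took 7.18%, 7.14% and 8.14% in nonTV:Malat1 and 7.43% and 7.76% in Malat1 ASO replicates 1 and 5. The OTV:Malat1 libraries lay below all others, and the other 3 groups overlapped. The OTV:Malat1 mean of 4.88% ± 0.472 was 66.3% of the control mean of 7.37% ± 0.512 (SD, n = 3 each). The edgeR log2 difference was -0.62 (SE 0.131), with an unadjusted p of 0.000395 and an adjusted p of 1.00 over the 16806 genes tested. It was -0.62 with an adjusted p of 0.0284 under the replicate block, and -0.63 with 4.52e-05 in DESeq2, so the call rested on the fit. Within batches the log2 ratio was -0.46, -0.70 and -0.62 in replicates 1, 4 and 5, and the exact permutation p was 0.1, the smallest that 3 libraries against 3 can give. OTV:Malat1 minus nonTV:Malat1 was -0.65 (SE 0.131, edgeR unadjusted p 0.000267, adjusted p 1.00, and 0.0308 with the block). OTV:Malat1 minus Malat1 ASO was -0.67 (SE 0.144, edgeR unadjusted p 0.000496, adjusted p 1.00, and 0.171 with the block), and nonTV:Malat1 and Malat1 ASO minus ATV:BACE1 were 0.03 (SE 0.131) and 0.04 (SE 0.146).

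**Figure D4:**
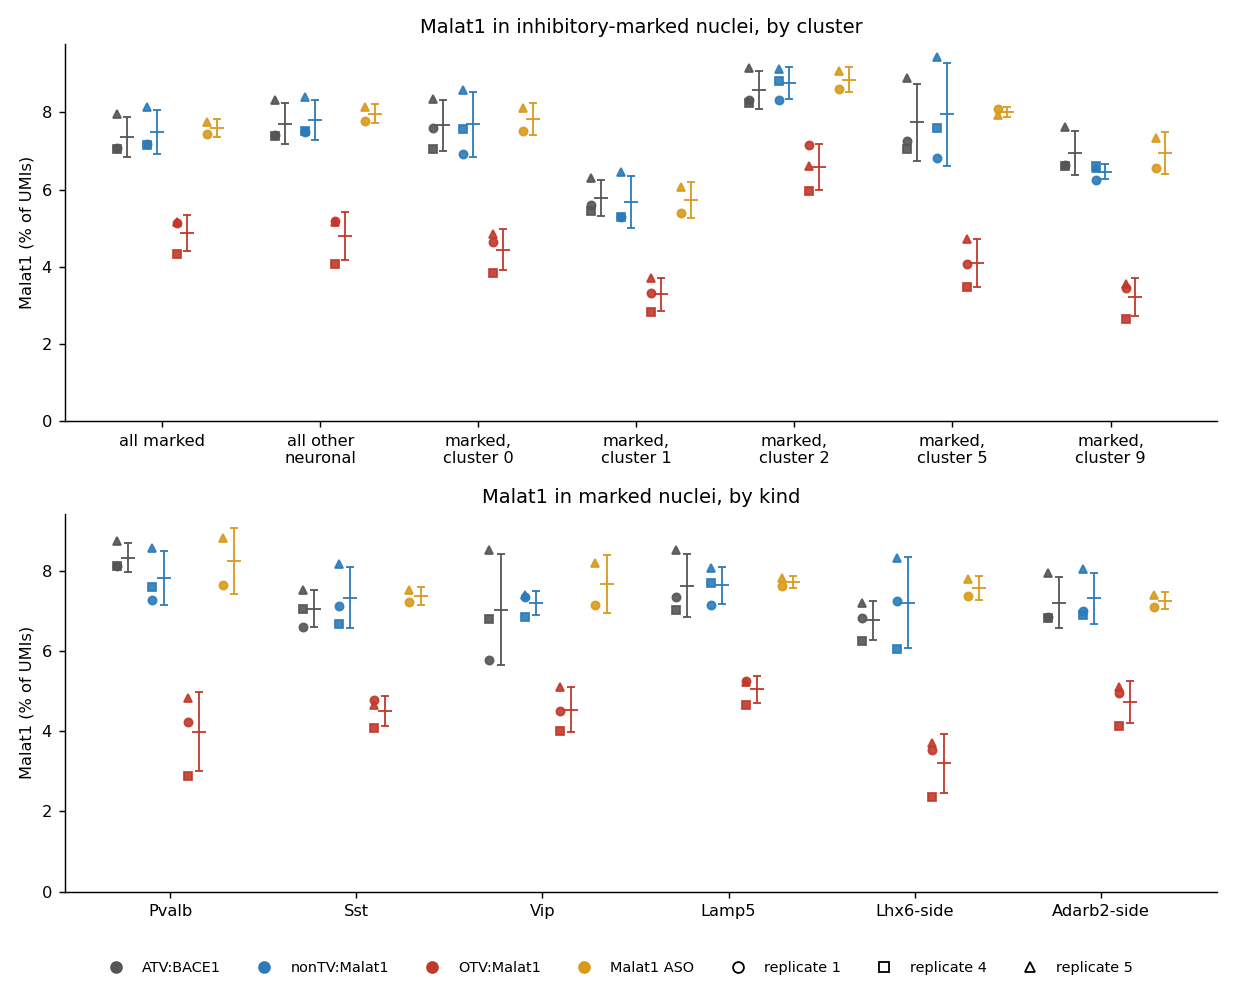
Malat1 as percent of UMIs in marked nuclei together and by cluster, beside the other neuronal nuclei (top), and by kind (bottom), with 1 point per library and bars for the mean and SD of a group. OTV:Malat1 libraries lie below those of the other groups in each set, with the smallest gap in cluster 2.

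Pooled over clusters, a difference between marked and other neuronal nuclei was not called by the test over all genes. The 2 sets also differ in their clusters. Cluster 2, where least Malat1 was lost, gave 5335 of 13629 marked and 9479 of 62799 other neuronal nuclei. The part of this cluster mix was not tested. Other neuronal nuclei of OTV:Malat1 were at 62.3% of control, and the difference between the 2 changes was 0.10 (SE 0.037) on the log2 scale, with an edgeR adjusted p of 0.999 for the interaction. The log2 ratio of Malat1 in marked over other nuclei was -0.066, -0.065 and -0.067 in replicates 1, 4 and 5 of ATV:BACE1 and -0.0086, 0.087 and 0.0015 in OTV:Malat1, without overlap (exact permutation p 0.1, the smallest possible). Malat1 ASO did not overlap ATV:BACE1 either, at a difference of -0.0030 and the same exact permutation p, since the ATV:BACE1 ratios lie so close together. Cluster by cluster, compared after the values were seen, marked nuclei of cluster 1 stood at 56.9% of control and its unmarked nuclei at 65.2%. The marked nuclei went from 5.78% ± 0.458 of UMIs in ATV:BACE1 to 3.29% ± 0.435 in OTV:Malat1. The unmarked nuclei went from 5.17% ± 0.417 to 3.37% ± 0.396 (SD, n = 3 each). The 2 sets thus differed mainly in the controls and were close in OTV:Malat1. The difference of the changes, -0.23 (SE 0.046), had an edgeR adjusted p of 0.151, and 0.00565 with the replicate block. In the other 4 clusters the same difference was -0.03 (cluster 0), 0.00 (cluster 2), -0.01 (cluster 5) and -0.08 (cluster 9). None of the 5 clusters thus showed the pooled difference of 0.10. The unmarked nuclei can include inhibitory nuclei that the rule missed, since 14860 neuronal nuclei held 1 GABA gene UMI and marking favours deeper nuclei. In cluster 2 the unmarked nuclei were as high as the marked ones in the striatal markers Rgs9 and Drd2. Small differences in these 4 clusters therefore do not show that inhibitory and other neurons lost Malat1 alike. The cluster 1 difference was -0.23 without Malat1 ASO replicate 5, and -0.23 without nonTV:Malat1 replicate 1 (edgeR adjusted p 0.0260). Over the number of GABA gene UMIs in cluster 1, OTV:Malat1 was at 65.8% of control in nuclei with 0, 63.9% with 1, 58.0% with 2 to 3 and 54.7% with 4 or more, while median depth ran from 2810 to 5176 UMIs. Between nuclei with 0 and with 4 or more, Malat1 rose from 5.14% to 5.94% of UMIs in ATV:BACE1. In OTV:Malat1 it went from 3.38% to 3.25%, so most of this gradient lay in the controls. In cluster 2 the 4 percentages of control ran from 76.3% to 78.0%, with depth from 3587 to 7050 UMIs. They did not fall steadily in cluster 0 (59.2%, 58.6%, 56.9% and 60.8%), cluster 5 (53.3%, 56.4%, 52.0% and 55.9%) or cluster 9 (50.9%, 42.8%, 49.5% and 41.7%). Over all neuronal nuclei they were 61.3%, 65.6%, 66.9% and 66.0%.

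The size of the loss differed between clusters. Marked nuclei of cluster 9 went from 6.63%, 6.61% and 7.62% of UMIs in replicates 1, 4 and 5 of ATV:BACE1 to 3.45%, 2.65% and 3.55% in OTV:Malat1, which is 46.3% of control. Malat1 fell there by 1.18 on the log2 scale (SE 0.098, edgeR adjusted p 1.95e-08), and it also fell in marked nuclei of cluster 5 (-0.97, adjusted p 0.000254), cluster 1 (-0.87, adjusted p 0.0142) and cluster 0 (-0.83, adjusted p 0.000347). In clusters 5 and 0 Gad1 lay near or below its glial level in CPM, though above it in UMIs per nucleus, and called doublets were 70.5% and 42.7% of marked nuclei. Being marked is therefore weak evidence of an inhibitory nucleus in these 2 clusters. Marked nuclei of cluster 2 went from 8.33%, 8.26% and 9.16% to 7.16%, 5.96% and 6.62%, which is 76.7% of control. The unmarked nuclei of these clusters stood at 48.1% in cluster 9 and 76.5% in cluster 2, a like gap that was not tested. The log2 difference in marked nuclei of cluster 2 was -0.39 (SE 0.144), with an edgeR adjusted p of 1.00, 0.111 with the block and 1.00 in DESeq2. Clusters 9 and 2, with the largest and smallest loss, were compared after the values were seen, and the adjustment over genes does not cover that choice. The change in cluster 9 exceeded that in cluster 2 by -0.77 (SE 0.123, edgeR adjusted p 0.00132). This call was lost without ATV:BACE1 replicate 5 (-0.72, adjusted p 0.112) and without OTV:Malat1 replicate 4 (-0.69, adjusted p 0.0618). In the library ratios of the 2 clusters nonTV:Malat1 also lay below ATV:BACE1 without overlap (-0.13, exact permutation p 0.1). Its marked nuclei of cluster 9 were at 93.0% of control. Malat1 ASO overlapped ATV:BACE1 (-0.04, exact permutation p 0.5). Cluster 1 exceeded cluster 2 by -0.49 (SE 0.083, edgeR adjusted p 0.0887), and passed with the block (1.18e-07), without OTV:Malat1 replicate 5 (-0.57, adjusted p 0.000618) and without nonTV:Malat1 replicate 5 (-0.48, adjusted p 0.0190). Cluster 9 minus cluster 1 was -0.30 (SE 0.104, edgeR adjusted p 1.00).

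Cluster 9 stands apart in its oligodendrocyte genes. The 4 oligodendrocyte markers summed to a median of 2053 CPM in its marked nuclei, against 207 in those of cluster 1 and 434 in those of cluster 2, with Mbp, a myelin protein gene, at 985 CPM. The sum was 1901 to 2067 CPM in the 3 ATV:BACE1 libraries and 2018 to 2384 CPM in the 3 OTV:Malat1 libraries. Called doublets in these nuclei were 50%, 59.6% and 75.0% in ATV:BACE1 and 42.1%, 39.0% and 57.1% in OTV:Malat1. Without called doublets the difference between clusters 9 and 2 was -0.78 but no longer passed the test. The part of the oligodendrocyte RNA in the loss in cluster 9 was not tested.

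Pvalb and Lhx6-side nuclei kept the least Malat1 among the kinds. Pvalb nuclei had 8.11%, 8.12% and 8.74% of UMIs from Malat1 in replicates 1, 4 and 5 of ATV:BACE1 and 4.23%, 2.89% and 4.82% in OTV:Malat1, which is 47.8% of control, in 42 to 76 nuclei per library of these 2 groups. The edgeR log2 change was -1.14 (SE 0.139, adjusted p 0.000279, with percent called 0.0143). Lhx6-side nuclei went from 6.81%, 6.26% and 7.20% to 3.52%, 2.34% and 3.71%, which is 47.2% of control, a change of -1.15 (SE 0.147, edgeR adjusted p 0.000166, with percent called 0.0173). These 2 sets overlap in cluster 1 and draw on the same libraries, so they are not independent. In nonTV:Malat1 they stood at 93.8% and 107% of control, and in Malat1 ASO at 98.9% and 112%.

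Malat1 fell in Sst, Vip and Lamp5 nuclei as well. Sst nuclei were at 63.9% of control (-0.69, SE 0.105, edgeR adjusted p 0.0484, percent called 0.00859), Vip nuclei at 64.5% (-0.69, SE 0.121, adjusted p 0.0191, percent called 0.0182) and Lamp5 nuclei at 66.1% (-0.62, SE 0.093, adjusted p 0.0184, percent called 0.00944). Adarb2-side nuclei were at 65.7% (-0.63, SE 0.131), with an edgeR adjusted p of 1.00 and 0.00730 with the block. With at least 2 UMIs of the kind gene, Sst nuclei were at 57.7% of control, Vip nuclei at 58.9% and Lamp5 nuclei at 64.3%. In each of these sets the OTV:Malat1 libraries lay below the ATV:BACE1 libraries. The calls for Sst, Vip and Lamp5 were lost on leaving out any 1 of several libraries, OTV:Malat1 replicate 4 and ATV:BACE1 replicate 5 among them.

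The differences between kinds were tested against all other marked nuclei of the same libraries. For Pvalb it was -0.55 (SE 0.134, edgeR adjusted p 0.303, and 0.0584 with the block) and for Lhx6-side nuclei -0.55 (SE 0.165, adjusted p 0.488, and 0.0276 with the block). For the library ratios behind both, the OTV:Malat1 and ATV:BACE1 libraries did not overlap (exact permutation p 0.1, the smallest possible). For Pvalb, nonTV:Malat1 did not overlap ATV:BACE1 either (-0.12, exact permutation p 0.1), while Malat1 ASO did (-0.07, exact permutation p 0.5). For Lhx6-side nuclei nonTV:Malat1 overlapped ATV:BACE1 (0.06, exact permutation p 0.6), and Malat1 ASO lay above it (0.12, exact permutation p 0.2). OTV:Malat1 lay below nonTV:Malat1 in both sets, by -0.40 and -0.59 (exact permutation p 0.1 each). The Pvalb difference passed without OTV:Malat1 replicate 5 (-0.67, adjusted p 0.00287) and without Malat1 ASO replicate 5 (-0.57, adjusted p 0.0473). With at least 2 UMIs of Pvalb the difference was -1.17 (edgeR adjusted p 0.0259), from 4 to 20 nuclei per library, where OTV:Malat1 stood at 2.30%, 2.02% and 3.45% of UMIs against 7.602%, 8.11% and 8.65% in ATV:BACE1. In nonTV:Malat1 these nuclei were at 7.003%, 7.04% and 6.22%, also below ATV:BACE1 (83.2% of control). For Sst, Vip, Lamp5 and Adarb2-side nuclei it was -0.08 (SE 0.059), 0.00 (SE 0.148), 0.01 (SE 0.063) and -0.00 (SE 0.035), with edgeR adjusted p from 0.998 to 1.00. With at least 2 UMIs of the kind gene it was -0.24 for Sst, -0.24 for Vip and 0.01 for Lamp5 (adjusted p 1.00 each).

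Since cluster 1 holds most Lhx6-side nuclei, the comparison was repeated inside it, a choice made after the values were seen. Pvalb nuclei of cluster 1 went from 7.63%, 6.85% and 7.63% of UMIs in replicates 1, 4 and 5 of ATV:BACE1 to 3.20%, 2.42% and 3.65% in OTV:Malat1, while its other marked nuclei went from 5.65% ± 0.483 to 3.31% ± 0.419 (SD, n = 3 each). The 2 sets thus differed in the controls and met in OTV:Malat1. The difference of the changes was -0.52 (SE 0.162, edgeR adjusted p 0.972). Lhx6-side nuclei of cluster 1 went from 6.16%, 5.68% and 6.27% to 3.12%, 2.02% and 3.11%, with a difference of -0.39 (SE 0.188, edgeR adjusted p 1.00). Neither passed with the block.

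**Figure D5:**
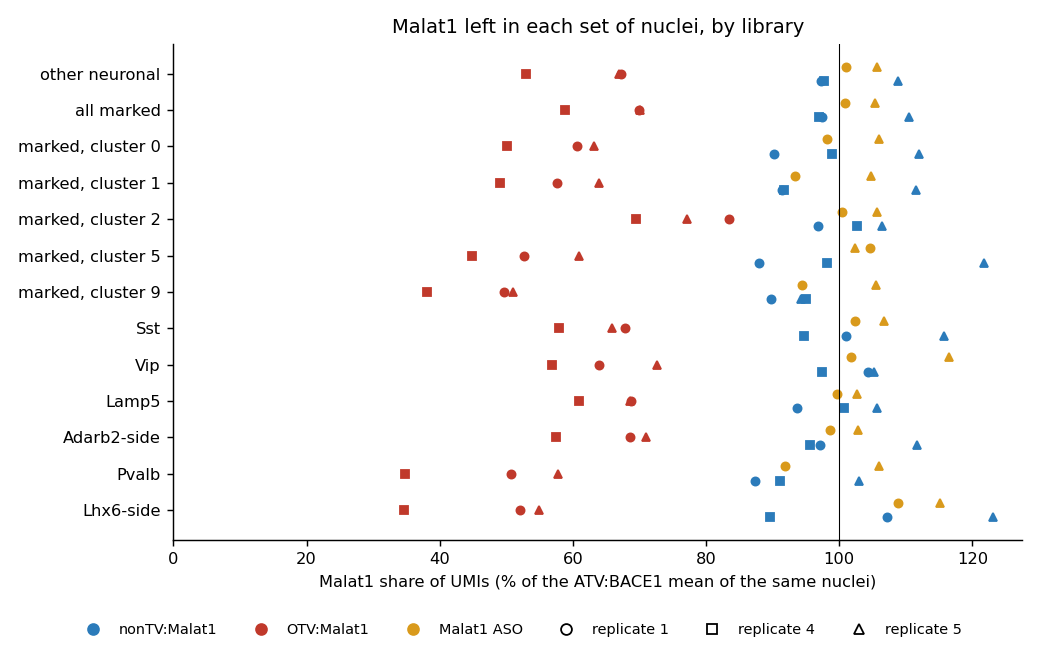
Malat1 share of UMIs in each set of nuclei as percent of the ATV:BACE1 mean of the same nuclei, with 1 point per library; 100 is the control mean. OTV:Malat1 lies left of the other groups in each set, furthest in Pvalb, Lhx6-side and cluster 9 nuclei and least far in marked nuclei of cluster 2.

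The loss was spread over many marked nuclei. After thinning to 1000 UMIs, nuclei at or under the 5th percentile of control Malat1 counts made up 6.11% ± 2.72 of marked nuclei in ATV:BACE1 and 31.6% ± 6.17 in OTV:Malat1 (SD, n = 3 each). The OTV:Malat1 share was 24.5% ± 8.24 in cluster 2, 42.4% ± 8.53 in cluster 1 and 75.3% ± 5.33 in cluster 9, against control shares of 5.00% to 7.06%. In Lhx6-side nuclei it was 59.9% ± 25.5, from 39.4% to 88.5% over the 3 libraries. The share in marked nuclei of nonTV:Malat1 was 6.04% ± 1.64 (SD, n = 3) and in Malat1 ASO 6.03% ± 0.713 (SD, n = 2), and in cluster 9 it was 17.4% ± 4.61 in nonTV:Malat1, above the control libraries (5.00% to 8.77%).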

How the data were processed

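The deposited counts are raw UMI counts per gene and nucleus, made by the authors with Cell Ranger 5.0.0 and Seurat 4 on build mm10, per the submitters' processing notes; clusters and doublet calls are the authors', from the deposited metadata. The 9 genes and the gene lists were chosen with earlier results of these data known. Counts were summed per library and set of nuclei and tested in edgeR 4.0.16 (quasi-likelihood test, TMM scaling, filterByExpr, all 11 libraries in 1 fit, Benjamini-Hochberg adjustment over all genes tested, R 4.3.3), with DESeq2 1.42.0 as an alternative. Differences between sets of nuclei of the same libraries were interaction terms. Levels and shares were computed in Python 3.11.15, with exact permutation tests in scipy 1.17.1, and an adjusted p of 0.05 was the threshold. Thinning drew 1000 UMIs per nucleus. The genes most like a member were ranked by mean log2 ratio over libraries, among genes of at least 20 CPM in nuclei with it, leaving out the other members.

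Named genes are the 9 members, the lists and the 5 genes ranked first for each member. Same-numbered libraries deviated together (r from 0.407 to 0.755 in 15 pairs, against -0.664 to 0.259 in 30 pairs of other numbers and groups), so the replicate numbers were taken to pair the libraries, and the fit with the block is printed where it changes a call. On counts simulated from the marked nuclei for OTV:Malat1 against ATV:BACE1, edgeR recovered 93 of 100 genes changed by a log2 of 1 and 100 of 100 changed by 2, with 13 false calls. In the interaction it recovered 54 and 100 of 100, with 6 false calls. The simulation gave every gene the same spread, changed only well-counted genes and held no pairing of libraries. It therefore does not show how often a change in the sparser of the 9 genes would be called. In the real marked nuclei the same fit did not call Malat1, at -0.62. Alternatives changed the scaling, the filter, the tool, the block, the rule for marking, the doublets and the libraries. Comparisons by cluster of marked nuclei, within cluster 1 and within 3000 to 8000 UMIs were chosen after seeing the data. Single values of some listed genes are not reported here.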

Additional observations from a re-analysis of the deposited data

Results flagged for a closer look

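The loss of Malat1 in OTV:Malat1 differed between inhibitory-marked nuclei of 2 clusters. It was larger in cluster 9 than in cluster 2 by -0.77 on the log2 scale (SE 0.123, edgeR interaction adjusted p 0.00132), with 46.3% and 76.7% of control left. These 2 clusters had the largest and smallest loss and were compared after the values were seen, which the adjustment over genes does not cover. The call was lost in 2 of 11 fits that left out 1 library. In the ratio of the 2 clusters nonTV:Malat1 also lay below ATV:BACE1 without overlap (-0.13, exact permutation p 0.1). Marked nuclei of cluster 9 had oligodendrocyte markers at 1833 to 2610 CPM over the 11 libraries and called doublets at 31.8% to 75.0%, without which the difference was -0.78 and no longer passed. The part of the oligodendrocyte RNA was not tested. The unmarked nuclei of the 2 clusters, at 48.1% and 76.5% of control, showed a like gap, which was not tested.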

How the results depend on the processing

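Of 1076 alternative values over 54 results, 985 kept their direction and side of the threshold. No alternative called any of the 9 genes. With the replicate block, which follows the pairing of libraries by number, the Malat1 change in marked nuclei passed for OTV:Malat1 against ATV:BACE1 (-0.62) and against nonTV:Malat1 (-0.65), as did Adarb2-side nuclei (-0.63), the Lhx6-side difference (-0.55), cluster 1 against 2 (-0.49) and marked against other nuclei of cluster 1 (-0.23). The block lost no call that the fit without it had made. DESeq2 also called marked nuclei against ATV:BACE1 (-0.63), nonTV:Malat1 (-0.65) and Malat1 ASO (-0.69) and Adarb2-side nuclei (-0.64), but not Vip nuclei (-0.68), and reversed the Vip difference (-0.029). Without TMM, cluster 1 against 2 passed (-0.43) and the Vip difference reversed (-0.027). Without the filter, the Pvalb (-0.55) and Lhx6-side (-0.54) differences, cluster 1 against 2 (-0.48) and marked against other nuclei of cluster 1 (-0.23) passed, and the Vip difference reversed (-0.0064).

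Without called doublets, Sst (-0.64), Vip (-0.61) and Lamp5 nuclei (-0.53) and cluster 9 against 2 (-0.78) no longer passed, cluster 1 against 2 (-0.53) and marked against other nuclei of cluster 1 (-0.23) did, and the Adarb2-side difference reversed (0.0034). Marking by at least 4 UMIs lost Vip (-0.34), Lamp5 (-0.53) and Lhx6-side nuclei (-1.13) and cluster 9 against 2 (-0.97), called Adarb2-side nuclei (-0.67) and turned the marked share of OTV:Malat1 minus nonTV:Malat1 to 0.494 points. Marking by at least 1 UMI lost Sst nuclei (-0.67), called cluster 9 against 1 (-0.42) and reversed the Lamp5 (-0.0082) and Adarb2-side (0.00057) differences. Nuclei of 3000 to 8000 UMIs lost Vip (-0.59) and Lamp5 (-0.45). Leaving out nuclei with Slc17a7 or Slc17a6 lost Vip (-0.67) and reversed its difference (-0.015). Kinds by at least 2 UMIs lost Vip (-0.81) and Lamp5 (-0.69), called the Pvalb difference (-1.17) and reversed that of Vip (-0.24). Thinned, the marked share was 0.296 points higher in OTV:Malat1 than in nonTV:Malat1 and 0.238 than in Malat1 ASO. The cause of these changes was not tested.

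Leaving out 1 library at a time, Malat1 in marked nuclei ranged from -0.68 to -0.56 for OTV:Malat1, from -0.026 to 0.067 for nonTV:Malat1 and from -0.011 to 0.082 for Malat1 ASO against ATV:BACE1. It ranged from -0.70 to -0.59 against nonTV:Malat1 and from -0.72 to -0.61 against Malat1 ASO. By kind it ranged from -1.31 to -0.95 in Pvalb and -1.27 to -0.97 in Lhx6-side nuclei, always called, and from -0.76 to -0.64 in Sst, -0.83 to -0.52 in Vip, -0.67 to -0.54 in Lamp5 and -0.70 to -0.56 in Adarb2-side nuclei. The differences ranged from -0.67 to -0.42 for Pvalb, -0.11 to -0.03 for Sst, -0.061 to 0.12 for Vip, -0.017 to 0.051 for Lamp5, -0.64 to -0.41 for Lhx6-side and -0.037 to 0.026 for Adarb2-side nuclei. They ranged from -0.57 to -0.41 for cluster 1 against 2, -0.85 to -0.69 for cluster 9 against 2, -0.35 to -0.27 for cluster 9 against 1 and -0.25 to -0.22 for marked against other nuclei of cluster 1. Differences in the marked share ranged from 0.591 to 6.02 points (OTV:Malat1 minus ATV:BACE1), -0.204 to 5.83 (nonTV:Malat1 minus ATV:BACE1), -0.784 to 8.45 (Malat1 ASO minus ATV:BACE1), -3.36 to 3.08 (OTV:Malat1 minus nonTV:Malat1) and -5.98 to 3.25 (OTV:Malat1 minus Malat1 ASO). At 2 UMIs the Pvalb kind rests on as few as 4 nuclei per library.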
